A study of Mus musculus with 47 samples.

Results

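RNA of muscle stem cells from mice on a high-fat diet was compared between ZT12 (4 mice) and ZT16 (3 mice), which are 7 of the 47 mice in the series. The members were defined by sample title. The members and the gene lists used below were chosen with earlier results of these data known. Zeitgeber time (ZT) counts the hours of the light cycle, and by convention ZT0 is lights on and ZT12 lights off in an even cycle, though the light schedule of these mice is not given in the sources used here. All mice were wild-type C57B6/J females, put on their diet at 8 weeks of age for 7 weeks with free access to food and 15 weeks old when sampled. Mice on the matched control diet at the same times (4 at ZT12 and 4 at ZT16) are used here to set the high-fat change beside theirs. The labels call the samples satellite cells or muscle stem cells of skeletal muscle, and how they were isolated is not given in the sources used here. The design text calls for 4 high-fat mice at ZT16, and the other one was not analysed here. Per the design text, mice of both diets at a time point were killed on a single day, so that time of day and collection day cannot be told apart in the change on either diet. A test of whether the change differs between the diets lies within those days, and a day effect common to both diets drops out of it.

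Satellite cells are the resident stem cells of skeletal muscle; they rest under the fibre's basal lamina until injury and are marked by the transcription factor PAX7. Like most cells they hold a molecular clock, in which BMAL1 (the product of Arntl) with CLOCK or NPAS2 drives the Per, Cry, Nr1d and Dbp genes through E-box elements, and the PER, CRY and REV-ERB (Nr1d) proteins repress in turn. Lights off begins the active phase of a mouse, when it feeds and when blood corticosterone is high.

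Values are log2 expression on Affymetrix arrays, 1 array per mouse, and a difference of 1 is a 2-fold change. Replicate mice of a group differed with a median SD of 0.19. The array medians were 5.90 to 5.92 at ZT12 and 5.87 to 5.89 at ZT16, without overlap, and mean correlations with the other mice of the group were 0.974 to 0.977 and 0.983 to 0.987. The 3' minus 5' differences of the control probe sets overlapped (Gapdh -0.19 to -0.09 and -0.19 to -0.17, actin -0.43 to -0.31 and -0.49 to -0.38). The part of these array differences in the changes below was not tested beyond the alternative scalings. Satellite cell markers were high at both times, with mean levels at ZT12 of 12.4 for Sdc4, 11.2 for Chodl, 11.1 for Pax7 and 10.7 for Myf5. The immune marker Ptprc (3.88) and the fibro-adipogenic marker Pdgfra (4.44) lay close to the level of probe sets with no target (median 3.89). Other members of these lists were bright at ZT12, such as Cd68 (8.60) of the immune list. Of the fibro-adipogenic list, Col3a1 (11.4), Dpt (11.3), Dcn (10.8) and Col1a1 (10.4) were bright, and its 6 tested markers averaged 9.50 to 9.91. Transcripts of nerve sheath and vessel cells were measurable, such as Mbp (10.0) and Rgs5 (10.5), and are taken up below where they move with a result.

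From ZT12 to ZT16 on the high-fat diet, 1230 of 10258 tested genes (12%) changed at an adjusted p under 0.05, 570 higher (5.56%) and 660 lower (6.43%) at ZT16. The median change of all genes was -0.02 and the median size among called genes was 0.54. Beyond 2-fold were 97 genes, 53 of them higher and 44 lower. The ZT12 and ZT16 mice did not overlap for 2440 genes (23.8%), and 1113 genes (10.9%) both passed and did not overlap. The share of higher calls moved with the scaling: 684 genes were higher and 584 lower after cyclic loess, and 687 and 565 with equal array medians. The count fell to 688 without high-fat ZT16 replicate 3 and to 709 without ZT16 replicate 1. Over the same days 982 genes (9.57%) changed in the control mice, 495 higher (4.83%) and 487 lower (4.75%); the count was 588 without control ZT16 replicate 4 and 646 without control ZT12 replicate 4. Of the genes called on either diet, 285 were called on both, which is 23.2% of the high-fat and 29.0% of the control calls, and 275 of them went the same way. The mice differ between these comparisons but the collection days are shared. A gene called on 1 diet alone need not differ between the diets: 130 of the 1230 high-fat calls passed the test of that difference.

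The largest increase was in Arntl, the BMAL1 gene, described with the clock below. It was followed by Pnpla7, a phospholipase gene, whose ZT12 mice stood at 7.86, 7.95, 7.29 and 8.13 and whose ZT16 mice stood at 9.84, 9.17 and 9.91, a change of 1.83 ± 0.29 (SE from limma, here and below; adjusted p = 3.17e-05). Spata4 rose by 1.74 ± 0.34, Neu2, a sialidase gene, by 1.62 ± 0.27 and Srxn1, which repairs oxidised peroxiredoxins, by 1.52 ± 0.24. These last 3 and Osmr, the oncostatin M receptor gene (1.38 ± 0.19), also rose on the control diet, by 2.1, 1.79, 2.02 and 1.31. Vipr2, a receptor for vasoactive intestinal peptide, stood at 6.16, 5.54, 5.62 and 5.35 at ZT12 and at 7.45, 6.85 and 6.81 at ZT16, and rose by 1.37 ± 0.22; on the control diet it moved by -0.04. The remaining genes among the 14 largest increases were Plcl2, Lrrc1, Galnt15, Mmd, Stx19, the chemokine gene Ccl21b and Trp53inp1, a p53-inducible gene with a role in autophagy, with changes between 1.28 and 1.35. Lrrc1 did not pass without ZT16 replicate 1 or replicate 3, where its change was 1.12 to 1.74 over the alternatives tried.

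Among the decreases, Slc15a2, a peptide transporter gene, had the largest fitted change (-3.62 ± 1.14), but its replicates spread widely, over 8.01 to 10.03 at ZT12 and 4.45 to 6.23 at ZT16. It did not pass without any 1 of 6 of the 7 mice (only the fit without ZT12 replicate 2 kept the call), and the mean of its probe sets moved by -1.27. The transcripts Gm12359 and D230025D16Rik fell by 1.74 ± 0.25 and 1.73 ± 0.31. Idi1, an isoprenoid enzyme gene of sterol synthesis, fell by 1.60 ± 0.25. Mex3a, an RNA-binding protein gene, stood at 8.73, 8.41, 8.54 and 8.46 at ZT12 and at 6.96, 7.28 and 7.22 at ZT16, and fell by 1.38 ± 0.17 beside a decrease of 1.35 on the control diet. Tktl1 (-1.47), the Wnt receptor gene Fzd2 (-1.42), Rnpc3 (-1.38), Zcchc3 (-1.37), Capn6 (-1.36), Trmt61a (-1.29), a tRNA methyltransferase subunit gene, and Islr (-1.27) also passed with no overlap. Aff3 (-1.67) did not pass without ZT16 replicate 3 and ranged from -2.02 to -1.22. Smoc2 (-1.42), a matrix protein gene, did not pass without any 1 of 6 of the 7 mice, nor with only the 23 high-fat arrays, no filter or the mean of its probe sets, and ranged from -1.74 to -0.87.

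In the clock, Arntl, Npas2 and Nfil3 rose while Dbp, Per1, Cry2 and Nr1d2 fell. Of 22 clock genes 20 were tested, and 3 rose (15.0%, against 5.56% of all tested genes), 4 fell (20%, against 6.43%) and 13 did not pass; the median change was -0.07. Arntl stood at 4.94, 5.48, 6.41 and 7.03 in the ZT12 mice and at 8.40, 8.01 and 8.30 in the ZT16 mice. The groups did not overlap, the ZT12 mice were the more spread (SD 0.94 against 0.20), and the rise of 2.27 ± 0.35 is 4.82-fold (adjusted p = 2.73e-05). Npas2, the CLOCK paralogue, stood at 7.40 to 7.64 at ZT12 and 7.99 to 8.23 at ZT16 and rose by 0.62 ± 0.11. Nfil3, a repressor that shares binding sites with DBP, stood at 10.11 to 10.24 and at 10.42 to 10.57 and rose by 0.31 ± 0.07. Clock itself did not pass (0.10 ± 0.19), nor did Rora (0.17 ± 0.08).

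Dbp, an output factor driven directly by BMAL1, had ZT12 levels of 9.11, 8.69, 8.76 and 8.76 and ZT16 levels of 7.80, 7.54 and 7.56, all below the lowest ZT12 mouse. It fell by 1.2 ± 0.21 (adjusted p = 0.00012). Per1 had ZT12 levels within 9.71 to 9.84 and ZT16 levels of 9.13, 8.68 and 9.19, and fell by 0.79 ± 0.15. Nr1d2, the REV-ERB beta gene, fell by 0.64 ± 0.15 from a range of 9.79 to 10.18 to one of 9.12 to 9.54. Cry2 fell by 0.67 ± 0.21 (adjusted p = 0.0308), a call lost without ZT12 replicate 2 or 3 or any of the ZT16 mice or with only the 7 arrays of both groups, with changes of -0.79 to -0.49. Another Period gene, Per2, went the other way without passing: 9.96, 9.88, 10.39 and 10.14 at ZT12 and 10.46, 10.34 and 10.65 at ZT16, an overlap and a change of 0.39 ± 0.17 (adjusted p = 0.138). Per3 (0.13), Cry1 (-0.31), Ciart (-0.16), Bhlhe40 (-0.12), Bhlhe41 (0.13), Tef (-0.30), Hlf (-0.38), Usp2 (-0.20), Csnk1d (0.01) and Csnk1e (-0.02) did not pass either. The values for Clock, Per3 and Usp2 changed sign with the mean of a gene's probe sets, and those of Csnk1d and Csnk1e with single mice left out or, for Csnk1e, other scalings.

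On the control diet over the same days, Arntl (2.40), Npas2 (0.42), Dbp (-0.63), Per1 (-1.17), Cry2 (-0.59) and Nr1d2 (-0.72) changed in the same direction and passed too. Nfil3 (0.07) did not pass on the control diet, and the test of its difference found 0.24 ± 0.10 (adjusted p = 0.221). Of the 20 clock genes the change differed between the diets only for Bhlhe41, a clock repressor that fell on the control diet (-0.66) and stood at 6.79 to 7.03 at ZT12 and 6.85 to 7.19 at ZT16 on the high-fat diet (difference 0.79 ± 0.16, adjusted p = 0.00591; 2.06% of all tested genes differed).

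**Figure D1:**
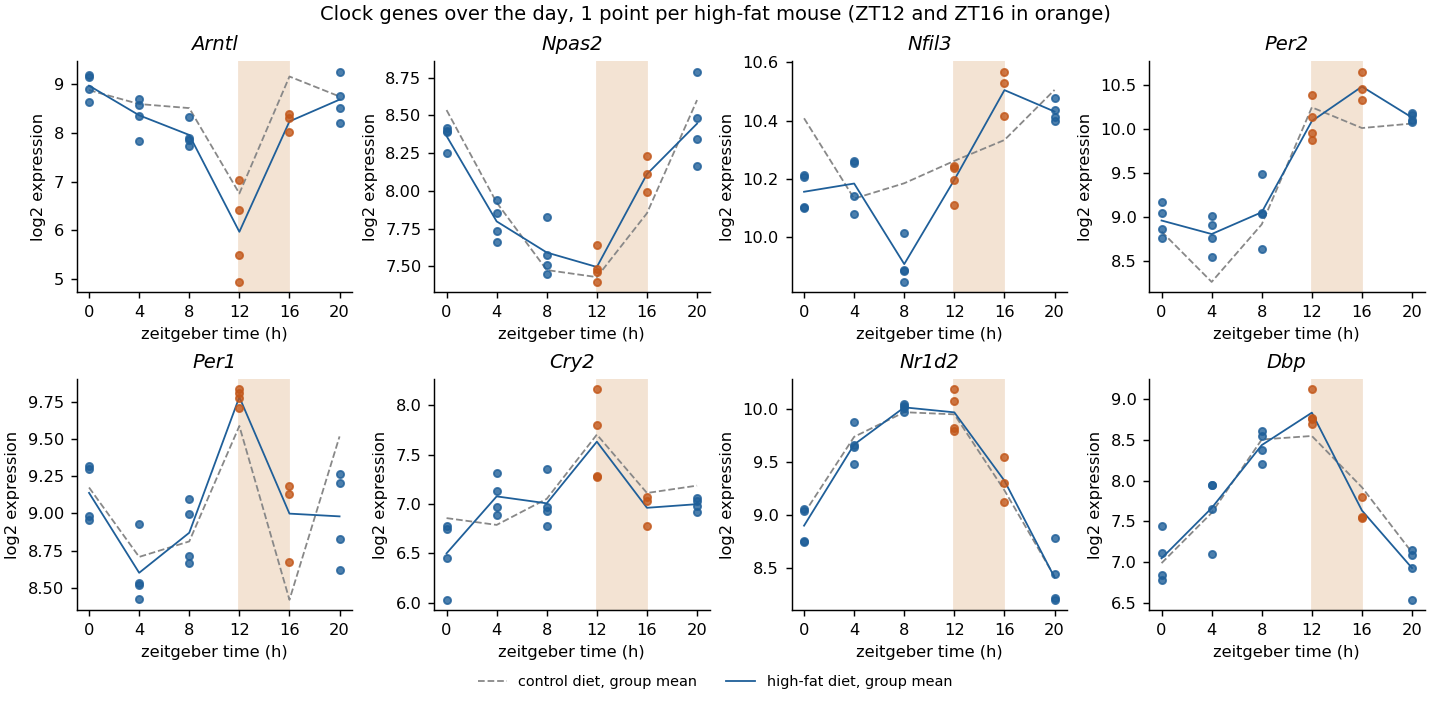
Log2 expression (vertical axis) of 8 clock genes against zeitgeber time in hours, with a point per high-fat mouse, the high-fat group means as a solid and the control group means as a dashed line, and the interval from ZT12 to ZT16 shaded. Arntl is lowest at ZT12 (mean 5.97) and stands at 8.24 at ZT16, while Dbp is highest at ZT12 (8.83) and stands at 7.63 at ZT16.

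Promoter windows of the clock genes (RefSeq, mouse build GRCm38.p6, 250 bases before to 50 after an annotated start) were searched on both strands for the E-box CACGTG and for TAGGTCA, an element bound by the ROR and REV-ERB receptors that act on Arntl and Nfil3. Among 25 windows of 17 clock genes, 6 (24.0%) held the E-box and 2 (8.00%) the element, against 10.0% and 1.81% of the 10625 windows of tested genes. Those with the E-box belong to Ciart, Bhlhe41, Cry1 and Tef, which did not pass, and to Per1. The share is not particular to the clock list: 5 of 24 windows (20.8%) of the glucocorticoid-responsive genes below held the E-box. Shown are the windows of the rising genes that hold the element and of the falling gene that holds the E-box, each 5′ to 3′ on the gene's strand, with the match or its reverse complement in capitals. They lie at chr7:113207261-113207560 (plus strand, Arntl, match starting at base 31 after the start site), chr13:52980990-52981289 (minus strand, Nfil3, match at -12) and chr11:69098699-69098998 (plus strand, Per1, match at -166).
Arntl: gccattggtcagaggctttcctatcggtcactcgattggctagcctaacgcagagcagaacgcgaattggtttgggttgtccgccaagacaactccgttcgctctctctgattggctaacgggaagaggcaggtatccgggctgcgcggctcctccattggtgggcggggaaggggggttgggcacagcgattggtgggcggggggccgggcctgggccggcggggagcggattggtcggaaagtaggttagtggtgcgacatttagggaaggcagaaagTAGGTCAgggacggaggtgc
Nfil3: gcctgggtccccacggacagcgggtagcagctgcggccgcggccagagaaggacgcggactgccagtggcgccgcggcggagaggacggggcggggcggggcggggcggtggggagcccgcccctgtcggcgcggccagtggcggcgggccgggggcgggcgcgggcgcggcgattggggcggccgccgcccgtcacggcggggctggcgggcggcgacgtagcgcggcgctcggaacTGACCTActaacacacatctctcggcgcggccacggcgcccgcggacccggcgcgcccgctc
Per1: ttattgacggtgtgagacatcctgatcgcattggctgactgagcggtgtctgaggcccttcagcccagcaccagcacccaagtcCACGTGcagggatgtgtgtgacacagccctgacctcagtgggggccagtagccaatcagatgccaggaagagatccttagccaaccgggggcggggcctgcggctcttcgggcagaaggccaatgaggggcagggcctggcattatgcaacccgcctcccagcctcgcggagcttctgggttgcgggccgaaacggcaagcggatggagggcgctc
Another window each of Arntl and Per1, from a different annotated start, held no match, nor did those of Npas2, Dbp, Cry2 and Nr1d2. Over all genes that rose, 10.9% of windows held the E-box and 1.19% the element, and over all that fell 11.4% and 1.53%.

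Many of the genes that respond to glucocorticoid hormone rose. Of 26 listed genes 21 were tested, and 13 rose (61.9%, against 5.56% of all tested genes) and 1 fell, with a median change of 0.60 (all genes -0.02). In control mice 1 rose and 2 fell, with a median of 0.06 (4.83% and 4.75% of all tested genes). Without any 1 of the 7 mice between 11 and 13 of the genes rose. Hsd11b1, whose enzyme regenerates active corticosterone within cells, stood at 10.38, 9.85, 10.49 and 10.36 at ZT12 and at 11.07, 11.05 and 11.03 at ZT16, a rise of 0.78 ± 0.13. Fkbp5, a co-chaperone that restrains the glucocorticoid receptor, stood at 8.09, 8.48, 7.90 and 8.04 and then at 9.27, 9.07 and 9.09, with no overlap, and rose by 1.02 ± 0.19 (2.02-fold, adjusted p = 0.000387). The receptor gene itself, Nr3c1, did not pass (-0.03 ± 0.15).

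Among the target genes, Pdk4, which brakes glucose oxidation, rose by 1.04 ± 0.11, from 9.17, 9.52, 9.31 and 9.43 to 10.49, 10.35 and 10.36 (adjusted p = 2.21e-08). Cebpd, a transcription factor gene, rose by 0.60 ± 0.09, from 10.23 to 10.37 at ZT12 to 10.72 to 11.09 at ZT16. Members picked out after their values were seen are the leucine zipper gene Tsc22d3 (8.19, 8.45, 8.99 and 8.47, then 9.80, 9.50 and 9.47; 1.06 ± 0.19), the mTORC1 inhibitor gene Ddit4 (1.10 ± 0.25) and the muscle ubiquitin ligase gene Fbxo32 (1.22 ± 0.28). All ZT16 mice lay above all ZT12 mice for these 3 genes. Sgk1 (0.24), Dusp1 (0.25), Errfi1 (0.16) and Mt1 (0.15) rose by less, and Klf9 fell by 0.13 ± 0.03 on this diet and by 0.12 on the control diet.

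The change was larger on the high-fat than on the control diet for 7 of the 21 genes (33.3%, against 1.13% of all tested genes): Fkbp5 by 1.54 ± 0.27, Tsc22d3 by 1.42 ± 0.26, Ddit4 by 1.59 ± 0.34, Zbtb16 by 1.52 ± 0.39, Sesn1 by 0.98 ± 0.23, Hsd11b1 by 0.69 ± 0.17 and Cebpd by 0.49 ± 0.12. Zbtb16 and Sesn1 did not pass on the high-fat diet alone (0.73 and 0.40). The difference for Hsd11b1 did not pass without high-fat ZT12 replicate 2, ZT16 replicate 1 or 3 or control ZT12 replicate 2 (0.55 to 0.79 over the alternatives). That for Cebpd did not pass without high-fat ZT16 replicate 1 or 3, control ZT12 replicate 1 or control ZT16 replicate 2, or with only the 15 arrays (0.40 to 0.58). Pdk4 rose on both diets (0.77 on the control diet), and its difference did not pass (0.27 ± 0.15, adjusted p = 0.356). Over the high-fat day Fkbp5 was highest at ZT16 (9.14 ± 0.11, SD, n = 3) and stood at 6.81 ± 0.21 (SD, n = 4) at ZT20. The site AGAACA of the glucocorticoid receptor was found in 4 of 24 windows (16.7%) of 15 of these genes, against 12.1% of windows of tested genes; 3 of the 4 windows belong to alternative starts of Sgk1 and the other to Tsc22d3, so that 2 of the 15 genes hold it.

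**Figure D2:**
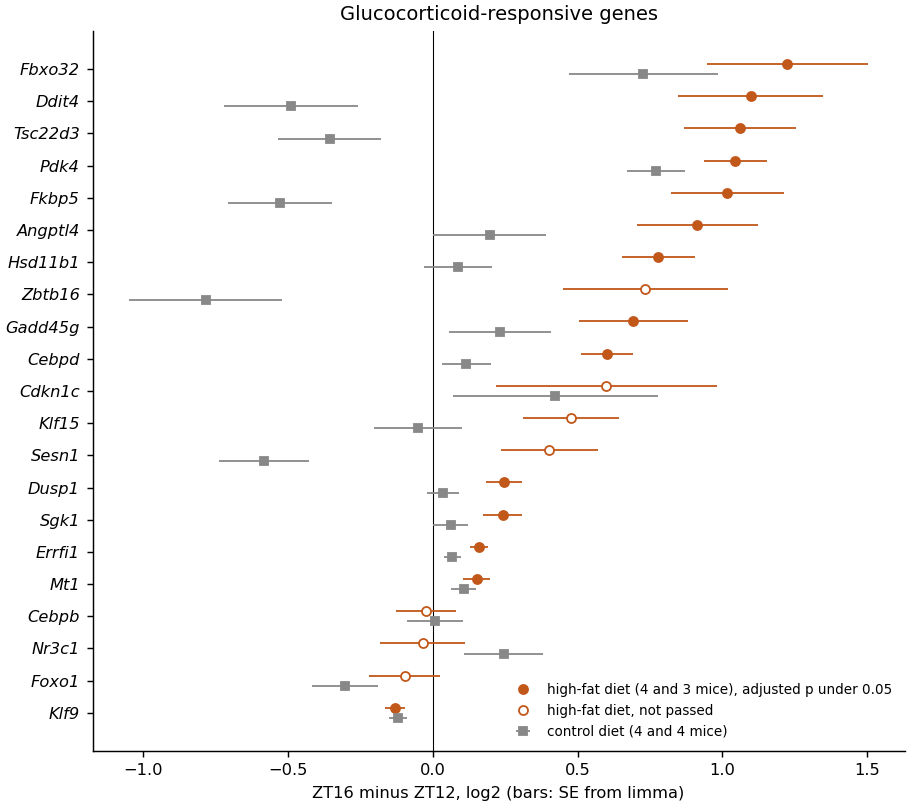
Change from ZT12 to ZT16 on the log2 scale (horizontal axis, with SE from limma) for the 21 tested glucocorticoid-responsive genes, circles for the high-fat diet (filled where the adjusted p is under 0.05) and grey squares for the control diet. High-fat changes reach 1.22 in Fbxo32, and Ddit4, Tsc22d3 and Fkbp5 lie on opposite sides of 0 on the 2 diets.

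Several NF-kB subunit and target genes rose. Of 18 listed genes 14 were tested, and 7 rose (50%, against 5.56%) and none fell, with a median of 0.41. On the control diet the median was 0.19 and 3 rose, where 4.83% of all tested genes did. All 14 fitted changes were above 0. Tnfaip3, a feedback inhibitor of NF-kB, stood at 9.12, 8.77, 9.03 and 8.60 at ZT12 and at 10.02, 9.99 and 10.11 at ZT16, a rise of 1.16 ± 0.14 (2.24-fold, adjusted p = 1.83e-07). Birc3, an apoptosis inhibitor and NF-kB target gene, stood at 7.87, 8.08, 7.92 and 7.71 and then at 9.05, 9.02 and 9.01, and rose by 1.13 ± 0.14. Rela, the p65 subunit gene, rose by 0.74 ± 0.13. For all 3 genes the ZT16 mice lay above the ZT12 mice.

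The diets differed for 1 of these genes: Tnfaip3 rose by 1.02 ± 0.18 more on the high-fat than on the control diet (adjusted p = 0.00173), where it moved by 0.14. Birc3 and Rela rose on the control diet too (0.63 and 0.72), with differences of 0.51 ± 0.19 and 0.02 ± 0.18 that did not pass. Of 10 immune cell markers only Cd68 and Cd74 were bright enough to be tested, and neither passed (adjusted p = 0.581 and 0.999); the defining markers Ptprc (3.88), Itgam (3.93) and Cd3e (4.16) were near the level of probe sets with no target at ZT12. Csf1r stood at 5.76 at ZT12 and was not tested. The mean of Cd68 and Cd74 alone lay within 7.28 to 7.73 at ZT12 and 7.57 to 7.69 at ZT16.

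Immediate early genes, which answer stimuli within minutes and also tissue dissociation, rose in 6 of 21 tested members (28.6%, against 5.56% of all tested genes) and fell in none, with a median of 0.11. The largest were Klf2 (1.04 ± 0.16, from 7.72, 7.92, 8.24 and 7.96 to 8.98, 9.09 and 8.93) and the antiproliferative gene Btg2 (0.64 ± 0.08), and Atf3 rose by 0.23 ± 0.06. For these 3 genes all ZT16 mice lay above the ZT12 mice. The number of immediate early genes that rose was 4 without ZT12 replicate 2 or ZT16 replicate 2 or 3. On the control diet 3 of them rose and 4 fell, against 4.83% and 4.75% of all tested genes. Heat shock chaperone genes went both ways, with 6 of 18 higher (33.3%) and 3 lower (16.7%), against 5.56% and 6.43% of all tested genes. Dnajb1, an HSP40 co-chaperone gene, rose by 0.70 ± 0.07 and Hspb1 by 0.37 ± 0.07, and both rose on the control diet as well (0.41 and 0.60). The higher count was 3 without ZT12 replicate 3 or ZT16 replicate 1, and the lower count 1 without ZT16 replicate 3. Among 14 p53 and DNA damage genes 4 rose (28.6%), among them Gadd45a (0.56 ± 0.10) and Plk2 (0.56 ± 0.12), and 1 fell; 2 rose without ZT16 replicate 3. Of 23 genes of the unfolded protein and integrated stress responses 2 rose (8.70%), with the chaperone gene Dnajc3 at 0.61 ± 0.11, and 2 fell (8.70%), with the transcription factor gene Xbp1 at -0.54 ± 0.12. These shares are near those of all genes (5.56% and 6.43%), and leaving out single mice took either to 1: ZT12 replicates 1 and 3 and ZT16 replicates 1 and 3 for the higher, and any mouse for the lower. NRF2 and antioxidant genes rose in 4 of 17 members (23.5%), Srxn1 and the catalase gene Cat (0.42 ± 0.10) among them. The number was 2 without ZT16 replicate 1. In control mice 4 rose too, where 4.83% of all tested genes did. Of 12 interferon response genes 1 rose (8.33%), H2-D1 (0.48 ± 0.08), and of 17 autophagy and lysosome genes 2 rose (11.8%), led by the cathepsin gene Ctsl (0.41 ± 0.07); 1 rose without ZT16 replicate 3. With the mean of a gene's probe sets Dnajc3 and H2-D1 did not pass, at 0.30 and 0.13.

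Several cholesterol synthesis genes fell. Of 27 listed genes 18 were tested, and 7 fell (38.9%, against 6.43% of all tested genes) and none rose, with a median of -0.22 (0.11 on the control diet). Idi1, which makes dimethylallyl pyrophosphate, stood at 7.71, 7.76, 7.56 and 7.22 at ZT12 and at 5.88, 6.27 and 5.74 at ZT16, with no overlap, and fell by 1.60 ± 0.25 (3.03-fold lower, adjusted p = 2.73e-05). Dhcr7, which makes cholesterol from its last precursor, fell by 0.79 ± 0.21, from 7.54, 6.90, 7.11 and 6.88 to 6.39, 6.16 and 6.39. Cyp51, the lanosterol demethylase gene, fell by 0.60 ± 0.16, from 9.08, 9.04, 8.84 and 8.64 to 8.33, 8.39 and 8.18. Its call was lost without ZT16 replicate 3 and that of Dhcr7 without ZT12 replicate 1 or ZT16 replicate 2, at changes within -0.69 to -0.54 and -0.87 to -0.65.

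The other members that fell were Sc5d (-0.94), Sqle (-0.72), Fdps (-0.71) and the sterol sensor gene Insig1 (-0.35), while the master regulator gene Srebf2 did not pass (-0.21 ± 0.14). The number that fell was 2 without ZT16 replicate 3, 3 without ZT12 replicate 2 and 4 without ZT12 replicate 1 or ZT16 replicate 1. The change was lower on the high-fat than on the control diet for 3 of 18 genes (16.7%, against 0.926%), namely Idi1 (-2.13 ± 0.34, adjusted p = 0.000375), Dhcr7 (-1.23 ± 0.29) and Cyp51 (-0.90 ± 0.22). The difference for Cyp51 did not pass without high-fat ZT16 replicate 3 or without control ZT12 replicate 2 or ZT16 replicates 2 or 4, with only the 15 arrays of both times or with the mean of its probe sets, within -1.05 to -0.59. Idi1 was lowest at ZT16 over the high-fat day (5.96 ± 0.27, SD, n = 3) and stood at 9.26 ± 0.32 (SD, n = 4) at ZT0.

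The list of fatty acid oxidation genes and targets of the PPAR lipid receptors rose in 5 of 29 tested members (17.2%, against 5.56% of all tested genes) and fell in none, with a median of 0.07. The 5 were 2 of 12 oxidation enzymes, 1 of 6 genes of uptake and the carnitine shuttle and 2 of 7 other targets. None of 4 receptor and coactivator genes passed. On the control diet 3 members of the list rose, where 4.83% of all tested genes did. Cpt1a, which admits long-chain fatty acids to mitochondria, stood at 8.40, 8.43, 8.12 and 8.5 at ZT12 and at 9.54, 9.48 and 9.27 at ZT16 and rose by 1.06 ± 0.15 (2.09-fold, adjusted p = 8.27e-06). In control mice it moved by -0.29, and the difference between the diets was 1.36 ± 0.21 (adjusted p = 0.000286). Acadl, the long-chain acyl-CoA dehydrogenase gene, rose by 0.89 ± 0.16, from 7.60 to 7.83 at ZT12 to 8.45 to 8.75 at ZT16; its difference between the diets did not pass (0.59 ± 0.22). Pdk4, given above, Angptl4 (0.91) and Acaa2 (0.64) were the others. Pdk4 and Angptl4 are the other targets, and both also count among the glucocorticoid-responsive genes that rose. Of 17 fatty acid synthesis genes 3 rose (17.6%) and 1 fell (5.88%, against 6.43%): the desaturase gene Scd1 rose by 0.30 ± 0.08 and the elongase gene Elovl1 fell by 0.63 ± 0.13 (-0.36, not passing, with the mean of its probe sets). The call for Scd1 was lost without ZT16 replicate 1, at 0.26 to 0.37, and no member of that list rose then.

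**Figure D3:**
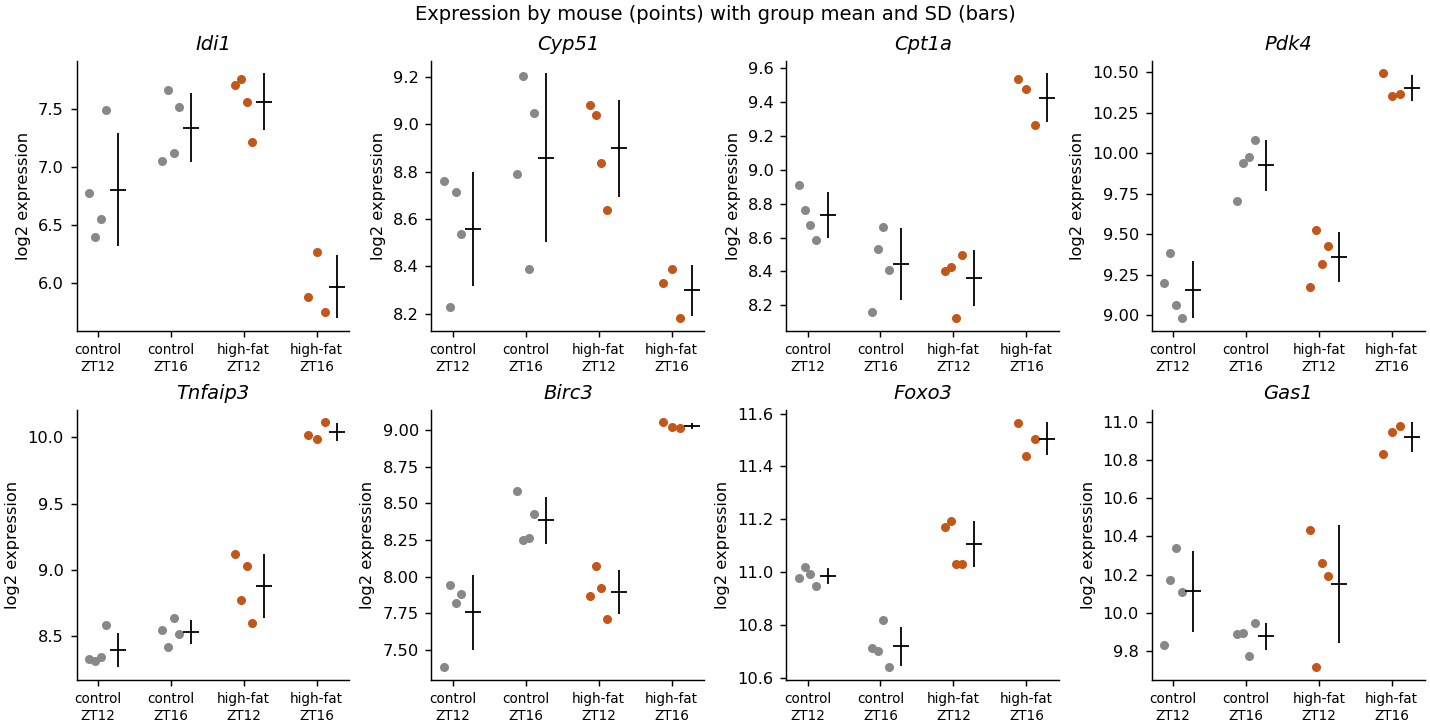
Log2 expression (vertical axis) of 8 genes in single mice (points), grey for the control and orange for the high-fat diet at ZT12 and ZT16, with group means and SD beside the points. For Cpt1a, Tnfaip3, Foxo3 and Gas1 the high-fat ZT16 mice stand above the other 3 groups, and for Idi1 below them.

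Genes of insulin signalling and of the FOXO factors, which insulin restrains, were higher in 5 of 20 tested members (25.0%, against 5.56% of all tested genes), none fell, and the median was 0.29. In control mice none rose, 4 fell (4.75% of all tested genes did) and the median was -0.08. Foxo3, a factor linked to satellite cell quiescence, stood at 11.17, 11.19, 11.03 and 11.03 at ZT12 and at 11.57, 11.44 and 11.51 at ZT16, a rise of 0.40 ± 0.07 without overlap. On the control diet it fell by 0.27 ± 0.07, and the difference of 0.66 ± 0.10 passed (adjusted p = 0.00027). Txnip, an inhibitor of glucose uptake, rose by 0.79 ± 0.13, from 10.43 to 10.71 at ZT12 to 11.35 to 11.49 at ZT16, with a difference between the diets of 0.85 ± 0.18. Sesn3, a sestrin gene, rose by 0.86 ± 0.23, a call lost without ZT16 replicate 2 (0.60 to 0.99 over the alternatives). The insulin receptor gene Insr (0.53) and Igf1r (0.52) were the others, and the number that rose was 3 without ZT12 replicate 4 or ZT16 replicate 2.

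In glycolysis 1 of 16 genes rose (6.25%, near the 5.56% of all tested genes) and 3 fell (18.8%, against 6.43%). Pfkfb3, which makes the activator of phosphofructokinase, rose by 0.77 ± 0.14, from 7.85, 7.55, 7.48 and 7.62 to 8.53, 8.18 and 8.47, and the difference between the diets was 1.07 ± 0.19 (adjusted p = 0.00143). Slc2a4, the gene of the insulin-responsive glucose transporter GLUT4, stood at 6.24 to 6.43 at ZT12 and 5.47 to 5.92 at ZT16, near the filter of 5.80. It fell by 0.64 ± 0.17 and moved by 0.32 ± 0.16 on the control diet (difference -0.96 ± 0.24). Its call was lost without ZT16 replicate 1 and with the mean of its probe sets. The call of its difference was lost in both of these, without control ZT16 replicate 2 and with only the 15 arrays of both times; the values lay within -0.73 to -0.51 and -1.08 to -0.72. Aldoa, the aldolase A gene, fell by 0.25 ± 0.06, and Gapdh by 0.15 ± 0.04. Without ZT16 replicate 1 a single member of the list fell.

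Genes of the respiratory chain that passed were nearly all lower at ZT16. Of 70 tested oxidative phosphorylation genes 10 fell (14.3%, against 6.43%) and 1 rose, with a median of -0.11, and 21 of the 70 changes were above 0. Ndufa1, a complex I subunit gene, stood at 9.99, 9.77, 10.10 and 10.18 at ZT12 and at 9.23, 9.59 and 9.42 at ZT16 and fell by 0.60 ± 0.12 (adjusted p = 0.000422). Ndufa4, a cytochrome oxidase subunit gene despite its name, fell by 0.66 ± 0.16, a call lost without ZT16 replicate 1 (-0.78 to -0.52), and Sdhc, of complex II, by 1.00 ± 0.28, lost without ZT12 replicate 2 or ZT16 replicate 1 or with only the 7 arrays (-1.16 to -0.71). The count of 10 was 3 without ZT16 replicate 1, 4 without ZT16 replicate 3 or ZT12 replicate 4, 5 without ZT12 replicate 2 and 6 without ZT12 replicate 1. No gene of the list differed between the diets.

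Of the factors that build and serve ribosomes, 4 of 27 ribosome biogenesis genes fell (14.8%, against 6.43% of all tested genes) and none rose, with a median of -0.30 against -0.07 on the control diet. Nolc1, a nucleolar chaperone gene, fell by 0.65 ± 0.15 and Nop10, of the pseudouridylation complex, by 0.39 ± 0.10. The number that fell was 2 without ZT12 replicate 4 or ZT16 replicate 1, 1 without ZT16 replicate 3 (where Nolc1 did not pass, within -0.73 to -0.51) and 7 without ZT12 replicate 3. Cytosolic ribosomal protein genes stayed near 0 (median 0.03, 1 of 65 rose) and so did mitochondrial ones (median -0.01, 3 of 69 rose, 4.35%, and 1 fell), with Mrpl41 at 0.94 ± 0.17 and a difference between the diets of 1.11 ± 0.23. Of 33 proteasome genes 3 fell (9.09%), led by Psmd1 (-0.69 ± 0.12, difference between the diets -0.77 ± 0.17), and 1 rose; 1 fell without ZT16 replicate 1 or 3.

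Splicing factor genes fell in 6 of 23 tested members (26.1%, against 6.43%) and rose in none, with a median of -0.10 on both diets. On the control diet 8 fell, where 4.75% of all tested genes did. Srsf10, an SR protein gene, stood at 10.87, 10.84, 10.75 and 10.75 at ZT12 and at 10.23, 10.27 and 10.13 at ZT16 and fell by 0.59 ± 0.07 (adjusted p = 1.51e-07). It fell by 0.22 on the control diet, and the difference of -0.37 ± 0.09 passed but was lost with the mean of its probe sets and without high-fat ZT16 replicate 3 or control ZT12 replicate 3 (-0.40 to -0.23). Hnrnpa2b1 and Hnrnpk fell by 0.41 ± 0.06 and 0.44 ± 0.07. The first did not pass with the mean of its probe sets, at -0.05.

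Satellite cell genes went both ways. Of 38 tested identity and quiescence genes 3 rose (7.89%, near the 5.56% of all tested genes) and 6 fell (15.8%, against 6.43%), with a median of -0.01. Pax7 stood at 11.17, 11.03, 11.12 and 11.23 at ZT12 and at 10.71, 10.57 and 10.83 at ZT16, with no overlap, and fell by 0.44 ± 0.08 (adjusted p = 0.00033); on the control diet it fell by 0.24. Gas1, a growth arrest gene, stood at 10.44, 9.71, 10.26 and 10.19 and then at 10.83, 10.95 and 10.98, and rose by 0.77 ± 0.15, with a difference between the diets of 1.01 ± 0.20 (adjusted p = 0.00384). The other members that fell, listed after their values were seen, were the Notch receptor genes Notch1 (-0.41) and Notch3 (-0.47), the Notch effector gene Heyl (-0.28), Sdc3 (-0.40) and Col5a1 (-0.39), and the other that rose besides Foxo3 was Tenm4 (0.42). Col5a1 did not pass without ZT12 replicate 1 or 3 or ZT16 replicate 1 or 3, with fewer groups in the fit or with the mean of its probe sets. Its change was -0.53 to -0.24 over the alternatives. The number that fell was 3 without ZT16 replicate 1. The remaining 7 of 8 satellite cell markers did not pass, from -0.38 for Cdh15 to 0.22 for Chodl.

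Ccnd1, the cyclin D1 gene, stood at 10.18, 10.34, 10.26 and 10.77 at ZT12 and at 8.98, 9.37 and 9.30 at ZT16 and fell by 1.17 ± 0.20 (2.25-fold lower, adjusted p = 9.96e-05). On the control diet it did not pass (-0.55, adjusted p = 0.0518), nor did the difference (-0.62 ± 0.27). Rrm2, a ribonucleotide reductase subunit gene, went the other way, from 6.68, 6.67, 6.54 and 7.23 to 7.89, 8.06 and 8.01 (1.21 ± 0.27). Of 29 cell cycle genes 1 rose (3.45%, against 5.56%) and 2 fell (6.90%, against 6.43%); the other that fell, Cdk4 (-0.49 ± 0.15), did not pass without ZT12 replicate 2 or 4 or any ZT16 mouse or with only the 7 arrays (-0.61 to -0.39). Among 11 commitment and differentiation genes only Ccnd1 passed: Myog was at 5.0 to 6.81 at ZT12 and 6.82 to 7.07 at ZT16 (1.08 ± 0.55, adjusted p = 0.21), and Des was at 0.29 ± 0.12 with a difference between the diets of 0.63 ± 0.16 (adjusted p = 0.0242). That difference did not pass without high-fat ZT12 replicate 3 or 4, ZT16 replicate 1 or 3, control ZT12 replicate 4 or control ZT16 replicate 2, within 0.46 to 0.72 over the alternatives. The change of the commitment factor gene Myod1, named for its values, differed between the diets the other way, more negative on the high-fat diet. So 1 of the 11 genes differed in each direction, against 1.13% and 0.926% of all tested genes.

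Markers of other cell types moved alongside. Of 6 tested Schwann cell markers 3 fell (50%, against 6.43% of all tested genes), Mbp by 1.18 ± 0.24, Pmp22 by 0.59 ± 0.09 and Mag by 0.46 ± 0.11. The mean of the list, over its tested markers here and below, was 7.92 to 8.54 at ZT12 and 7.58 to 7.78 at ZT16. Of 6 pericyte and smooth muscle markers 2 fell (33.3%, against 6.43%), Pdgfrb by 0.70 ± 0.22 and Notch3, also a satellite cell gene. The list mean was 9.61 to 9.86 and then 8.88 to 9.39. None of 6 fibro-adipogenic markers passed (Col1a1 at -1.34 ± 0.50, adjusted p = 0.0756), while the list mean went from 9.50 to 9.91 at ZT12 to 9.02 to 9.33 at ZT16. Of the 6, Col3a1 (0.01) and Dpt (0.11) did not fall. The myofibre list mean was 6.35 to 6.61 and then 6.67 to 6.82, and Mylpf alone of its 14 tested genes passed (0.44 ± 0.13). That is 7.14% of them, near the 5.56% of all tested genes that rose. None of 5 endothelial, 2 adipocyte and 2 erythroid markers passed. Of the endothelial ones, Pecam1 (0.98 ± 0.34, adjusted p = 0.0511) and Tek (0.52 ± 0.18, adjusted p = 0.0521) were higher and narrowly missed the threshold. Cdh5 (-0.25), Flt1 (-0.26) and Egfl7 (-0.0007) were not higher. The adipocyte list mean, of Lipe (0.23) and Retn (0.01) alone, was 6.82 to 6.94 and then 6.95 to 7.08. Adipoq (4.38, then 4.10) and Lep (4.37, then 4.30) were too dim to be tested. In these 5 lists the groups did not overlap, with lower means at ZT16 in the Schwann cell, pericyte and fibro-adipogenic lists and higher means in the myofibre and adipocyte lists. Of all tested genes taken singly, 23.8% did not overlap. A change in the number of cells of a type and a change in RNA per cell cannot be told apart, and the part of these cells in the decreases of Islr, Smoc2, Col5a1, Notch3 and the matrix genes and in the other changes was not tested. Pax7, the satellite cell marker, fell alongside, whereas the satellite cell list mean overlapped (10.06 to 10.42 and 10.08 to 10.24). Extracellular matrix genes numbered 1 higher (Lama2, 0.32) and 2 lower (Col5a1 and Timp2, -0.19) of 26, shares close to those of all genes. None rose without ZT16 replicate 3; none fell without ZT16 replicate 1, and 1 fell without ZT12 replicate 1 or 3 or ZT16 replicate 3.

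**Figure D4:**
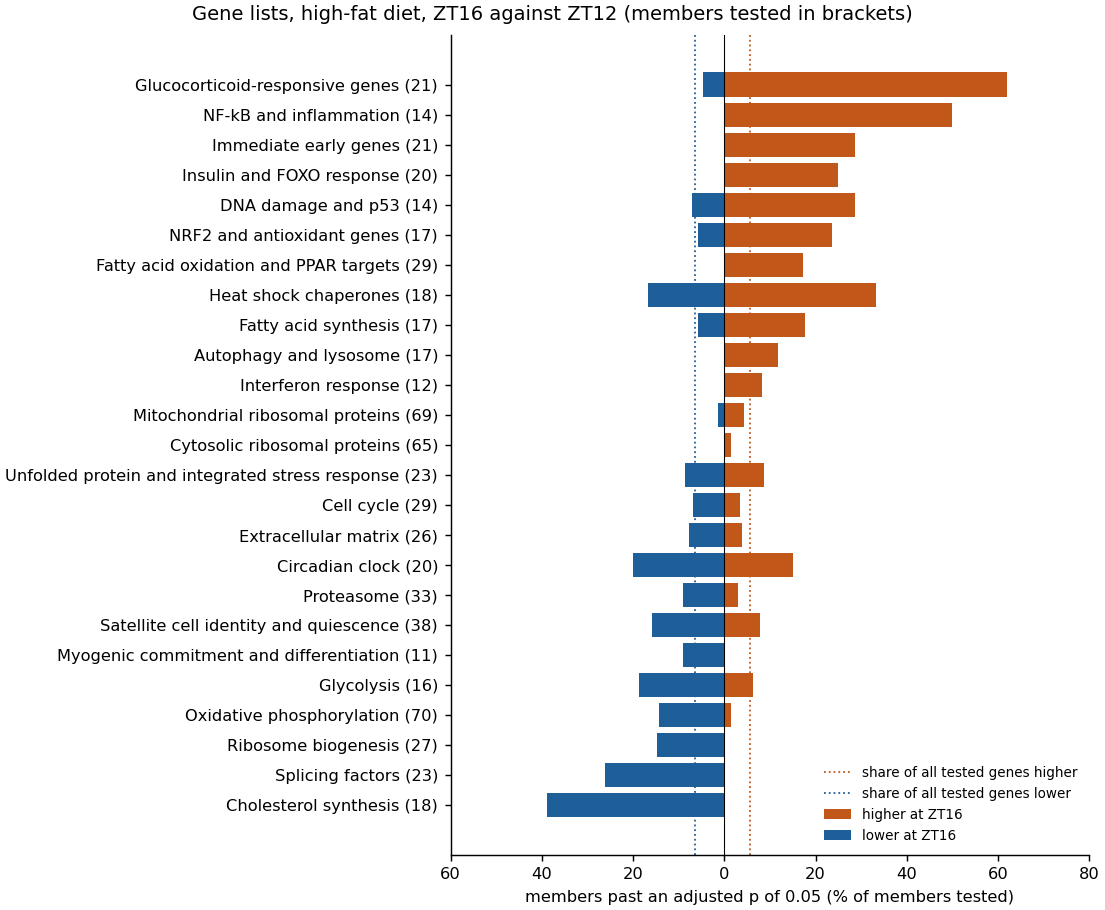
Share of the tested members of 25 gene lists that were higher (orange, to the right) or lower (blue, to the left) at ZT16 on the high-fat diet at an adjusted p under 0.05, in percent. Dotted lines mark the shares of all tested genes, 5.56% higher and 6.43% lower. Glucocorticoid-responsive genes reach 61.9% higher and cholesterol synthesis 38.9% lower.

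For 211 genes (2.06%) the test of the difference between the diets passed, 116 of them with the more positive change on the high-fat diet (1.13%) and 95 with the more negative one (0.926%). Their number was 86 without high-fat ZT16 replicate 3 and 107 without ZT16 replicate 1, and 571 with array weights. The smallest p belonged to Trp53inp1, which stood at 9.21, 9.05, 8.86 and 8.85 at high-fat ZT12 and at 10.34, 10.15 and 10.35 at ZT16, against control means of 8.86 and 8.67 (difference of the changes 1.47 ± 0.20, adjusted p = 5.51e-05). At ZT12 the diets were apart by 0.13 ± 0.13 for this gene and at ZT16 by 1.61. Cables1, a cyclin-dependent kinase adaptor gene, stood at 7.74, 7.71, 7.79 and 7.45 and then at 8.89, 9.01 and 8.76, and its change was larger by 1.5 ± 0.23. Cyp2d22, a cytochrome P450 gene, rose by 0.71 ± 0.12, with a difference of 0.98 ± 0.16. Luc7l3, a splicing-related gene, fell by 0.45 ± 0.06, with a difference of -0.50 ± 0.08. Foxo3, Cpt1a, Idi1 and Fkbp5, given above, complete the 8 smallest p-values.

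For these 8 genes the difference between the diets at ZT12 did not pass (adjusted p from 0.105 to 0.926), and at ZT16 each passed, from -1.37 for Idi1 to 1.61 for Trp53inp1 and Cables1. The value by which the 8 were picked is the diet difference at ZT16 less that at ZT12. A large diet difference at 1 or both of the times therefore follows from the choice. Over the high-fat day, Trp53inp1, Cables1, Foxo3, Gas1, Plcl2 and Vipr2 all had their highest mean at ZT16. Plcl2, for example, stood at 7.99 ± 0.47 (SD, n = 4) at ZT12, 9.34 ± 0.23 (SD, n = 3) at ZT16 and 7.73 ± 0.22 (SD, n = 4) at ZT20. Cpt1a stood at 9.50 ± 0.20 (SD, n = 4) at ZT20. These values at neighbouring times come from other mice on other days.

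**Figure D5:**
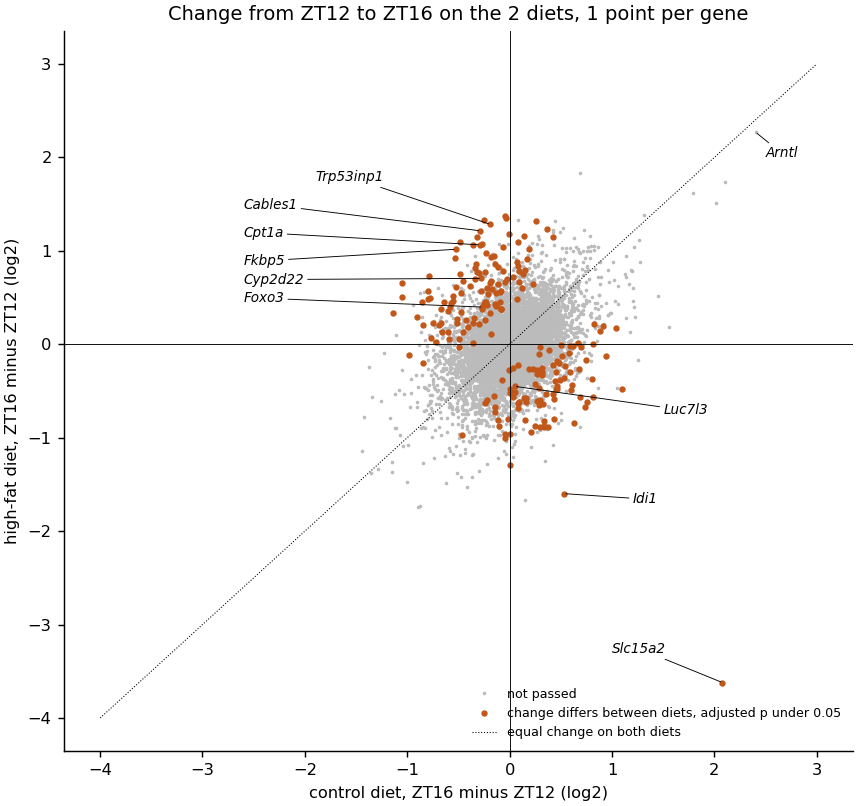
Change from ZT12 to ZT16 on the log2 scale on the high-fat diet (vertical axis) against the control diet (horizontal axis), with a point per tested gene, orange where the change differs between the diets at an adjusted p under 0.05, and a dotted line of equal change. Arntl lies near that line (2.40 and 2.27), and Idi1 (0.53 and -1.60) lies far below it.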

How the data were processed

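The measured material was RNA of muscle stem cells on Affymetrix arrays, 1 array per mouse. Per the labels' protocols, RNA was extracted with TRizol and cDNA was amplified from 25 ng over 17 cycles, which can distort levels between genes more than changes within a gene. The deposited values are log2 signals of 45141 probe sets, made with RMA per the submitters' processing notes; no version or settings are named in the sources used here. The values are not counts, so precision is limited by the number of arrays. Probe sets were named from the platform annotation: 28898 had 1 symbol, 551 several and 15692 none, and only the first were used. Each gene was represented by its probe set of highest mean over all arrays, and the 10258 of 17097 genes with a mean at or over the 40th percentile (5.80) were tested.

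Means of 12 groups (6 time points on 2 diets) were fitted over all 47 arrays with limma 3.58.1 in R 4.3.3 (lmFit, eBayes with an intensity trend). The contrasts were ZT16 minus ZT12 on each diet and their difference, two-sided, with Benjamini-Hochberg adjustment over all tested genes and a threshold of 0.05; every adjusted p in the text is from this fit. The labels number biological replicates. The p-values and SE rest on the spread between mice within groups, shared over all 12 groups, and not on the compared mice alone. The text names the 14 largest increases and 14 largest decreases that passed without overlap of the mice, every tested clock gene, up to 3 members of each other list with the smallest p, and the 8 smallest p for the difference between the diets; other list members are named for their values. The members and gene lists were chosen with earlier results of these data known. Lists are described by counts and medians, and no list was tested. Alternatives changed the arrays in the fit, the moderation, array weights, the filter, the probe set rule, the scaling, a replicate block and each mouse; those for the control diet were added after seeing the data. The fit was tested on simulated data. Promoter windows are RefSeq's on GRCm38.p6, matched by symbol.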

Additional observations from a re-analysis of the deposited data

Results flagged for a closer look

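Among the 119 genes that the rule for named genes gives, 30 had a change from ZT12 to ZT16 that differed between the diets by the test of the difference (limma, adjusted p under 0.05). Tsc22d3, Ddit4, Zbtb16, Sesn1 and Myod1, named for their values, differed too and are given above. A positive value means a more positive change on the high-fat diet. Glucocorticoid-responsive and metabolic genes were Fkbp5 (1.54), Hsd11b1 (0.69), Cebpd (0.49), Cpt1a (1.36), Txnip (0.85), Foxo3 (0.66), Pfkfb3 (1.07), Slc2a4 (-0.96) and Aldoa (-0.29). The sterol genes were Idi1 (-2.13), Dhcr7 (-1.23) and Cyp51 (-0.90). Signalling and stress genes were Tnfaip3 (1.02), Btg2 (0.41), Trp53inp1 (1.47), Cables1 (1.5), Vipr2 (1.41), Plcl2 (1.38), Mmd (1.58) and Ccl21b (1.06). Muscle and clock genes were Gas1 (1.01), Des (0.63) and Bhlhe41 (0.79), and the remaining ones were Cyp2d22 (0.98), Mrpl41 (1.11), Psmd1 (-0.77), Srsf10 (-0.37), Luc7l3 (-0.50), Trmt61a (-1.30) and Slc15a2 (-5.70). For Slc15a2 the control mice at ZT12 held a single low value, with 9.29, 10.08, 4.04 and 10.52. Without at least 1 of the 15 mice in turn the test was not passed for Aldoa (-0.33 to -0.25 over the alternatives), Btg2 (0.37 to 0.45), Ccl21b (0.92 to 1.19), Mmd (0.67 to 1.74) and Slc15a2 (-6.38 to -1.94), nor for Cebpd, Cyp51, Des, Hsd11b1, Slc2a4 and Srsf10, whose mice are named above.

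For each of the 119 genes the 4 high-fat mice at ZT12 and the 4 control mice at each of ZT12 and ZT16 were checked; the 3 high-fat mice at ZT16 are too few for this check. In 16 of these 357 groups a single mouse stood apart from the others by more of the group's range than Dixon's 95% critical value, where chance gives about 1 in 20. Of these, 7 were in the high-fat group at ZT12. The ratio was 0.964 for Gadd45b in replicate 3 (highest, 9.74 against 9.57), 0.940 for Plk2 in replicate 4 (highest, 8.87 against 8.46) and 0.921 for Trmt61a in replicate 1 (highest, 7.28 against 7.08). It was 0.894 for Islr in replicate 2 (lowest, 8.94 against 9.62), 0.860 for Sdhc in replicate 2 (highest, 7.24 against 6.27), 0.860 for Timp2 in replicate 2 (lowest, 11.42 against 11.59) and 0.853 for Aldoa in replicate 3 (lowest, 10.62 against 10.73). In the control mice at ZT12 the ratio was 0.966 for Sdhc in replicate 2 (highest, 6.88 against 6.03), 0.937 for Cry2 in replicate 3 (highest, 7.97 against 7.63) and 0.895 for Tnfaip3 in replicate 4 (highest, 8.59 against 8.34). It was 0.891 for Hnrnpa2b1 in replicate 4 (highest, 10.62 against 10.51), 0.874 for Cry1 in replicate 1 (lowest, 6.98 against 7.26) and 0.853 for Ccl21b in replicate 2 (highest, 8.27 against 7.99). In the control mice at ZT16 it was 0.960 for Dhcr7 in replicate 4 (lowest, 6.57 against 7.00), 0.879 for Plcl2 in replicate 3 (highest, 8.08 against 7.85) and 0.866 for Bhlhe40 in replicate 2 (highest, 10.20 against 9.86).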

How the results depend on the processing

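Of the 119 genes that the rule for named genes gives, 98 passed on the high-fat diet; 66 of them passed in the same direction under every alternative that gave them a value (16 to 18 of 18, since a stricter filter or a mean of probe sets can drop a gene) and 32 lost the call under at least 1. Of their 30 differences between the diets, 19 passed under every alternative with a value (23 or 24) and 11 did not. List members named only for their values, such as Tsc22d3, Ddit4, Zbtb16 and Sesn1, were followed as part of their list's count alone. Array weights raised the count on the high-fat diet from 1230 to 1852 (1025 lower) and that of the difference from 211 to 571 (280 higher, 291 lower); the cause was not tested. Leaving out 1 mouse gave 688 to 1063 genes on the high-fat diet (332 to 498 higher, 348 to 577 lower) and 588 to 834 on the control diet (303 to 447 higher, 285 to 434 lower). It gave 86 to 199 for the difference (56 to 118 higher, 30 to 98 lower). The lowest counts were without high-fat ZT16 replicate 3 or 1 and without control ZT16 replicate 4. Each of these fits has 1 array fewer, and without high-fat ZT16 replicate 2 the count on the high-fat diet was 939. Why the counts depend on the mouse left out was not tested. The other settings kept every count of genes within 1.5 times, from 950 with only the 7 arrays of the comparison to 1381 with the mean of a gene's probe sets on the high-fat diet.

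Among the named genes the sign turned only for ones that did not pass. With the mean of the probe sets Clock stood at -0.041, Per3 at -0.12, Usp2 at 0.0393 and the ribosomal gene Rpl11 at -0.27. Csnk1e stood at 0.00247 after cyclic loess, 2.23e-05 with equal medians and between -0.0611 and 0.0309 with 1 mouse left out, above 0 without ZT12 replicate 1 or ZT16 replicate 3. Csnk1d stood between -0.034 and 0.0581 with 1 mouse left out, below 0 without ZT12 replicate 1 or 4 or ZT16 replicate 2.

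Same-numbered high-fat mice at ZT12 and ZT16 correlated in their deviations at 0.112, 0.0359 and 0.157, and not every one of these mice correlated best with its own number, so the numbers were not taken to pair the mice. With the replicate number as a block, 1088 genes passed on the high-fat diet, 897 on the control diet and 184 for the difference. With 3 or 4 arrays a group, and levels near those of probe sets with no target, small changes of dim genes are beyond these data.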
